A study of Mus musculus with 12 samples.

Results

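This account covers the genes that carry, receive and restrain Wnt signals in C2C12 cells, a mouse myoblast line that forms multinucleated muscle fibres when serum is lowered. The set was chosen by symbol in the mm10 annotation, as every Wnt, Fzd, Sfrp, Dkk and Dvl gene with a number, plus Lrp5, Lrp6, Ror1, Ror2, Lgr4, Porcn, Wls, Axin1, Axin2, Ctnnb1, Lef1, Tcf7, Tcf7l1, Tcf7l2 and Wif1. This gave 55 of 25750 genes, of which 40 reached a TPM (transcript abundance scaled by length and by library) of at least 1 in at least 3 of 12 libraries, as did 13079 genes in all. Those 40 are called measured here, and the rule that gave the 55 uses symbols and no measured value, though it was set with earlier results of these data known.

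Poly(A) RNA was sequenced from 4 groups of 3 libraries. D0 siControl and D0 siKctd10 were undifferentiated myoblasts, kept below confluence in medium with 10% FBS and treated with a non-targeting siRNA or with 1 siRNA against Kctd10, the gene of a substrate adaptor of CUL3 ubiquitin ligases. D2 siControl and D2 siKctd10 were differentiating myocytes that received the same siRNAs and were moved 24 h later to medium with 2% horse serum. The protocol gives 48 h of siRNA for all samples, which leaves the harvest time of the D2 cells uncertain. D2 and D0 thus differ in serum, and possibly in time and cell density, as well as in differentiation. These cannot be told apart, and a change by day or with differentiation below means D2 against D0. All groups are the same cell line, only 1 siRNA sequence targeted Kctd10, and no rescue was part of these samples. The labels do not say whether replicates were separate cultures, and the p-values rest on the spread among these libraries alone, which may be technical.

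Wnt proteins are lipid-modified ligands that need the acyltransferase PORCN and the carrier WLS to leave the cell. They bind Frizzled receptors together with LRP5 or LRP6, which acts through Dishevelled to stop AXIN and its partners from marking β-catenin for destruction, so that β-catenin can join TCF and LEF factors on DNA. SFRP proteins and WIF1 bind ligands outside the cell, DKK proteins bind the LRP co-receptors, and ROR receptors carry β-catenin-independent signals. In muscle, Wnt signals are known for roles in embryonic myogenesis and in the differentiation of satellite cells.

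The siRNAs are shown because every comparison by siRNA rests on them. The capitals mark the seed of the guide strand, bases 2 to 8 from its 5′ end.

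siKctd10 sense strand: ccagcaauucugacgauaa
siKctd10 guide strand: uUAUCGUCagaauugcugg
non-targeting control sense strand: ugguuuacauguuuucuga

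The 7-base match to that seed, GACGATA, was in an annotated 3′ UTR of 0 of 40 measured Wnt genes, against 0.935% of 11976 tested genes with such a UTR. All annotated 3′ UTRs of a gene were searched. The 6-base match to guide bases 2 to 7, ACGATA, was in a 3′ UTR of Lrp6, Ror1 and Wnt4, which is 7.5% of the 40 against 4.32% of all. A match of letters is a description and was not tested as a site.

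Kctd10 (chr5:114363567-114380508, GRCm38/mm10) was lower in every siKctd10 library. At D0 its TPM was 272, 258 and 269 in siControl and 24.8, 24.5 and 20 in siKctd10. At D2 it was 285, 276 and 289 against 34.3, 26.8 and 35.1. The log2 fold change was -3.48 at D0 (limma adjusted p = 6.7e-07) and -3.12 at D2 (limma adjusted p = 2e-06). Libraries held an estimated 12.51 to 18.08 read pairs (×1000000), and 12025 to 12605 genes per library reached 1 TPM. The siKctd10 libraries numbered 3 stood apart from the other siKctd10 libraries on the second principal component (41.8 at D0 and 42.2 at D2 from the centre, against 1.3 to 20.8), and results were also computed without them. All 8 myoblast and all 8 myocyte markers were measured. The myoblast markers summed to 841 to 885 TPM in D0 siControl and 964 to 1060 in D0 siKctd10. At D2 they summed to 2431 to 2582 in siControl and 1976 to 2279 in siKctd10. They did not all move together, since at D2 Msc was lower with the siRNA and Vcam1 higher, each without overlap. The summed TPM of the myocyte markers was 111 to 144 in D0 siControl, 207 to 223 in D0 siKctd10, 3457 to 3637 in D2 siControl and 2140 to 2557 in D2 siKctd10. That sum was higher in both D2 groups and, with the siRNA, higher at D0 and lower at D2. At D0 the myocyte markers did not move together: Acta1 was at 72.9 to 102 TPM in siControl and 135 to 196 in siKctd10, while Myog overlapped at 10.1 to 14.3 and 9.1 to 11. Nor did they at D2, where Myh3 was at 299 to 340 TPM in siControl and 199 to 612 in siKctd10. Tnnt2 was at 60.6 to 107 and 70.4 to 191 TPM there. These markers overlapped at D2, while the other myocyte markers were all lower with the siRNA without overlap. The part of the markers in the results that follow was not tested. The summed fibroblast markers (4 of 5 measured, Tcf21 at 0) were at 324 to 343 TPM in D0 siControl, 277 to 316 in D0 siKctd10, 281 to 1132 in D2 siControl and 524 to 616 in D2 siKctd10, with Ly6a at 67.9 to 901. In the same order the smooth muscle markers (3 of 4 measured) summed to 29 to 43.9, 36.1 to 96.3, 46.7 to 91.1 and 33.5 to 69.3 TPM. The osteoblast markers (2 of 7 measured, Bglap and Ibsp at 0) summed to 26.4 to 56.1, 53.1 to 63.2, 39.4 to 48 and 45.7 to 52 TPM, mostly Runx2. The adipocyte markers (2 of 6 measured, Adipoq, Fabp4, Lep and Plin1 at 0) summed to 28.3 to 35.6, 31.9 to 34.2, 15.9 to 18.5 and 29.7 to 30.7 TPM, from Pparg and Cebpa. The 3 epithelial markers (1 measured, Cdh1, and Epcam at 0) summed to 0.184 to 0.889, 0.807 to 1.14, 0.835 to 1.67 and 2.17 to 3.15 TPM. The 4 endothelial markers (0 measured, Kdr at 0) summed to 0.133 to 0.279, 0.268 to 0.878, 0.783 to 1.65 and 0.763 to 1.39 TPM. The 6 leukocyte markers (1 measured, Cd68, with Ptprc and Adgre1 among those at 0) summed to 0.995 to 1.69, 1.08 to 2.55, 0.872 to 1.3 and 1.43 to 1.75 TPM. In bulk RNA of this kind, fewer cells of a type and less RNA per cell cannot be told apart.

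**Figure D1:**
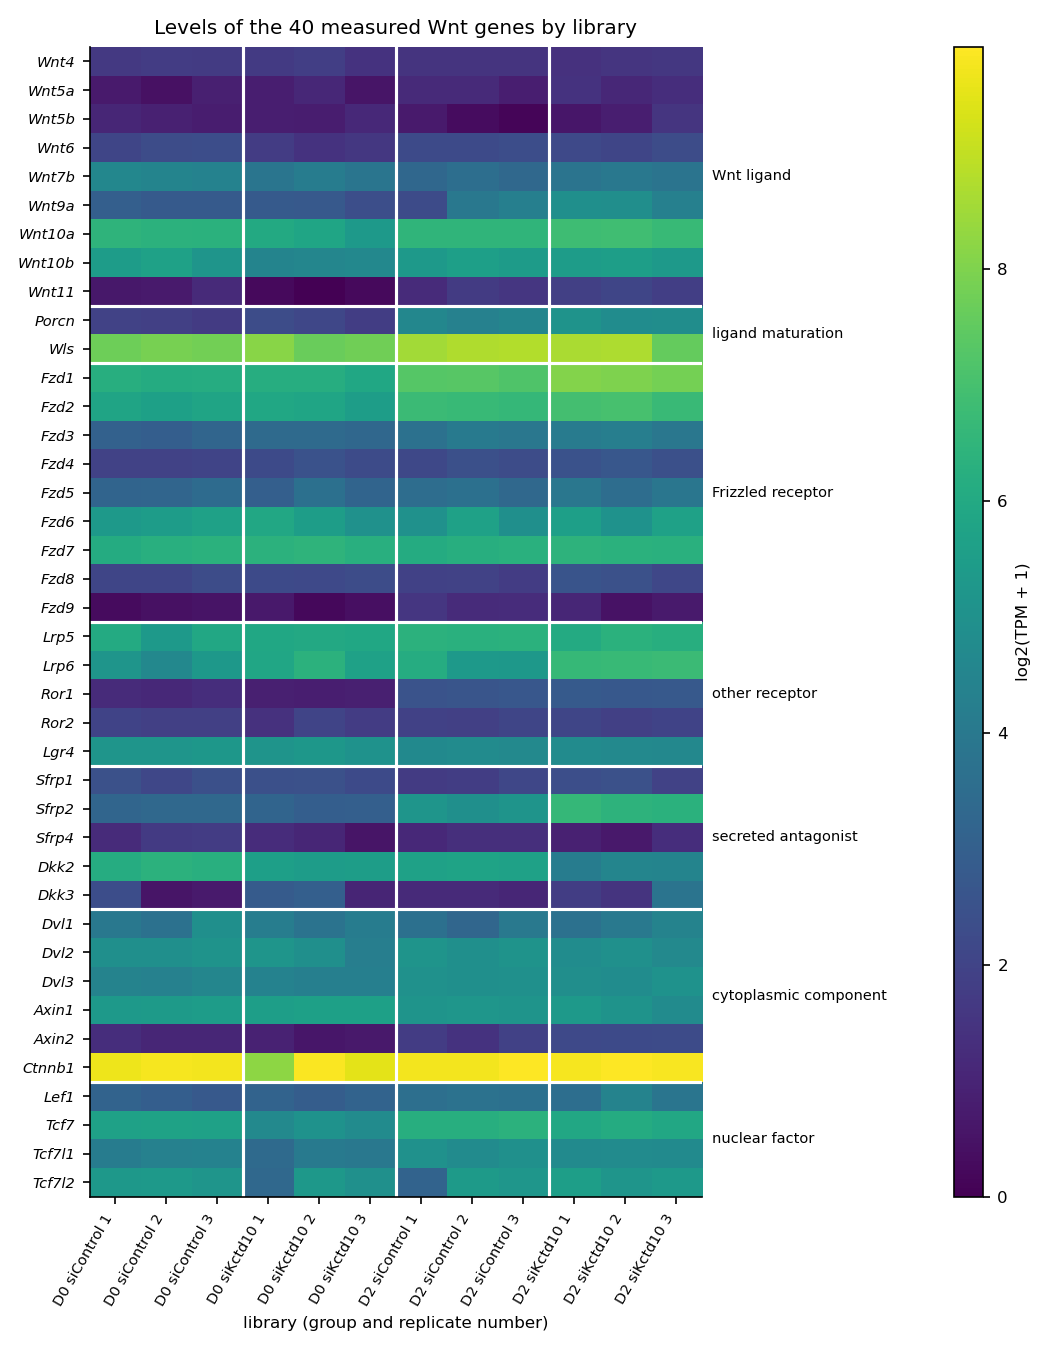
Heat map of log2(TPM + 1) for the 40 measured Wnt genes (rows, by role) in each of the 12 libraries (columns, by group and replicate number). Ctnnb1 and Wls are the brightest rows, and Sfrp2, Porcn and Fzd1 are brighter in the D2 columns than in the D0 columns.

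By role, 9 of 19 ligand genes, both maturation genes, 9 of 10 Frizzled genes, all 5 other receptors, 5 of 9 secreted antagonists, all 6 cytoplasmic components and all 4 TCF and LEF factors were measured. The 15 genes that were not measured were Wnt1, Wnt2, Wnt2b, Wnt3, Wnt3a, Wnt7a, Wnt8a, Wnt8b, Wnt9b, Wnt16, Fzd10, Sfrp5, Dkk1, Dkk4 and Wif1. Of these, 8 were at 0 in all 12 libraries, among them the antagonists Dkk1 and Sfrp5. Wnt2b came closest to being measured, with a TPM of 0.369 to 1.2. Because TPM is scaled per length, levels can be set beside each other, and the most abundant measured genes were Ctnnb1, at 297 to 966 TPM, and Wls, at 187 to 433 TPM. Of the 40, 14 have 1 deposited transcript that shares no exon base with another gene, among them Dkk2, Fzd1, Fzd2, Fzd3, Lgr4, Wnt6 and Wnt10a, and the estimates of the others are less certain.

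Fold changes below are differences of group means of log2(TPM + 1), a scale that makes changes of genes with low values look smaller, and a gene is said to rise or fall only where its adjusted p, over all 13079 genes, was under 0.05. The siRNA against Kctd10 lowered 4 and raised 0 of 40 Wnt genes at D0, where 2.45% of all genes passed the test (1.48% higher and 0.963% lower). At D2 it raised 3 and lowered 1, where 4.75% of all genes passed (2.83% higher and 1.92% lower). From D0 to D2, 15 rose and 3 fell in siControl cells, where 35.5% of all genes passed (21.4% higher and 14% lower). In siKctd10 cells 16 rose and 3 fell, where 36.4% of all genes passed (23.1% higher and 13.3% lower). The siRNA effect differed between the days for 3 Wnt genes, all with the higher effect at D2, where 0.742% of all genes passed (0.375% higher and 0.367% lower). Of the 40 Wnt genes these counts make up 10% at D0, 10% at D2, 45% by day in siControl, 47.5% by day in siKctd10 and 7.5% for the difference between the days. The groups did not overlap for 15 of the 40 by siRNA at D0 and 17 at D2, against 23.2% and 28.4% of all genes, and for 24 by day in siControl and 22 in siKctd10, against 52.3% and 48.4%. The median log2 fold change of the 40 was -0.07 for siKctd10 at D0 (0.05 over all genes) and 0.22 at D2 (0.08 over all genes). By day it was 0.16 in siControl (0.09 over all genes) and 0.48 in siKctd10 (0.12 over all genes). With 3 libraries against 3, a two-sided exact permutation test of 1 gene cannot give less than p = 0.1. The comparisons by siRNA and by day share groups, so their counts are not independent of each other.

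**Figure D2:**
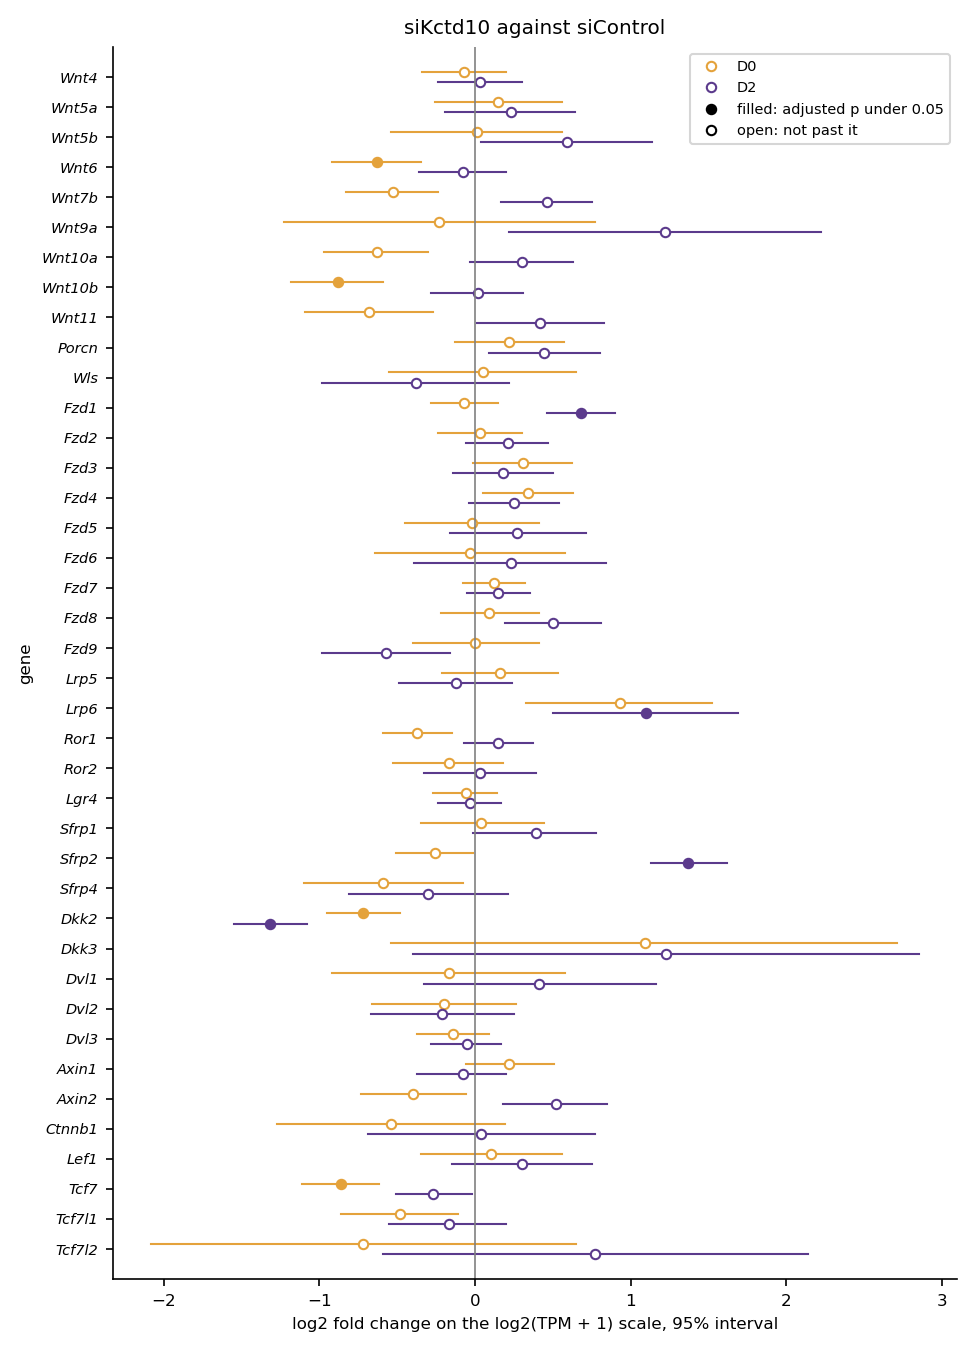
Log2 fold change of siKctd10 against siControl for each measured Wnt gene at D0 and at D2 on the log2(TPM + 1) scale, with the 95% interval; filled points have an adjusted p under 0.05. Dkk2 lies below 0 on both days, while Sfrp2, Fzd1 and Lrp6 are the filled points above 0 at D2.

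The 2 most abundant secreted antagonists moved in opposite directions by day and with the siRNA at D2. Sfrp2 (chr3:83766321-83774316), which encodes a secreted protein that binds Wnt ligands, rose with differentiation and rose further with the siRNA at D2. Dkk2 (chr3:132085292-132180304), which encodes a secreted ligand of LRP5 and LRP6, fell in all 4 comparisons. Both lie on chromosome 3 of GRCm38/mm10.

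Sfrp2 TPM was 8.35, 9.07 and 9.2 in D0 siControl and 8.07, 6.79 and 6.93 in D0 siKctd10. It was 34.8, 29.9 and 33.9 in D2 siControl and 95.1, 85 and 80.3 in D2 siKctd10. Every D2 library lay above every D0 library, and every D2 siKctd10 library above every D2 siControl library. The mean was 32.9 ± 2.6 in D2 siControl and 86.8 ± 7.56 in D2 siKctd10 (SD, n = 3 libraries each), a ratio of mean TPM of 2.64. The log2 fold change by siRNA at D2 was 1.37 (SE 0.11, limma adjusted p = 0.00022). At D0 the siKctd10 libraries were all below the siControl libraries, but that difference did not pass the test (log2 fold change -0.26, limma adjusted p = 0.3). By day the log2 fold change was 1.78 (SE 0.11, limma adjusted p = 1.5e-06) in siControl and 3.41 (SE 0.11, limma adjusted p = 5.8e-08) in siKctd10. The siRNA effect was larger at D2 than at D0 by 1.63 on the log2 scale (SE 0.16, limma adjusted p = 0.0035), and that call was kept in each of the 12 fits that left out 1 library. Gm26771 overlaps Sfrp2 on the opposite strand, and reads of such pairs cannot be told apart without strand, which is not given in the sources used here. The same holds for Lef1, Tcf7l1, Wnt7b, Dvl1, Dvl2 and Tcf7. Ror1 and Dvl3 each share exon bases with another deposited transcript on the same strand, where knowing the strand would not separate the reads.

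Dkk2 TPM was 69.5, 81 and 75 in D0 siControl and 47.2, 43.5 and 45.3 in D0 siKctd10. It was 50.1, 52.3 and 50.7 in D2 siControl and 17.1, 21.7 and 21.3 in D2 siKctd10. On each day no siKctd10 library reached the lowest siControl library. The log2 fold change by siRNA was -0.72 (SE 0.11, limma adjusted p = 0.0087) at D0 and -1.32 (SE 0.11, limma adjusted p = 0.00022) at D2. By day it was -0.55 (SE 0.11, limma adjusted p = 0.0025) in siControl and -1.15 (SE 0.11, limma adjusted p = 2.2e-05) in siKctd10. When the fit held the D0 groups alone, its D0 limma adjusted p was 0.055, and those of Tcf7, Wnt10b and Wnt6 also missed the threshold.

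Among the summed TPM of the 9 antagonists, Dkk2 made up 81.8 ± 2.55% in D0 siControl, 72.7 ± 5.29% in D0 siKctd10, 57 ± 1.9% in D2 siControl and 17.1 ± 2.53% in D2 siKctd10 (SD, n = 3 each). Sfrp2 made up 9.66 ± 0.327%, 11.6 ± 0.706%, 36.7 ± 2.53% and 73.9 ± 5.99% in the same order. The most abundant antagonist transcript was therefore Dkk2 in the first 3 groups and Sfrp2 in D2 siKctd10. The summed level was 91.8 ± 4.19, 62.5 ± 4.84, 89.5 ± 1.11 and 117 ± 3.34 TPM in that order. Of the other measured antagonists, Sfrp1 ranged from 2.34 to 4.52 TPM and Sfrp4, like Sfrp1 a ligand-binding protein, from 0.483 to 2.36 TPM. Dkk3, a divergent member of its family, ranged from 0.475 to 13 TPM with a wide spread inside groups, and none of these 3 passed any test.

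**Figure D3:**
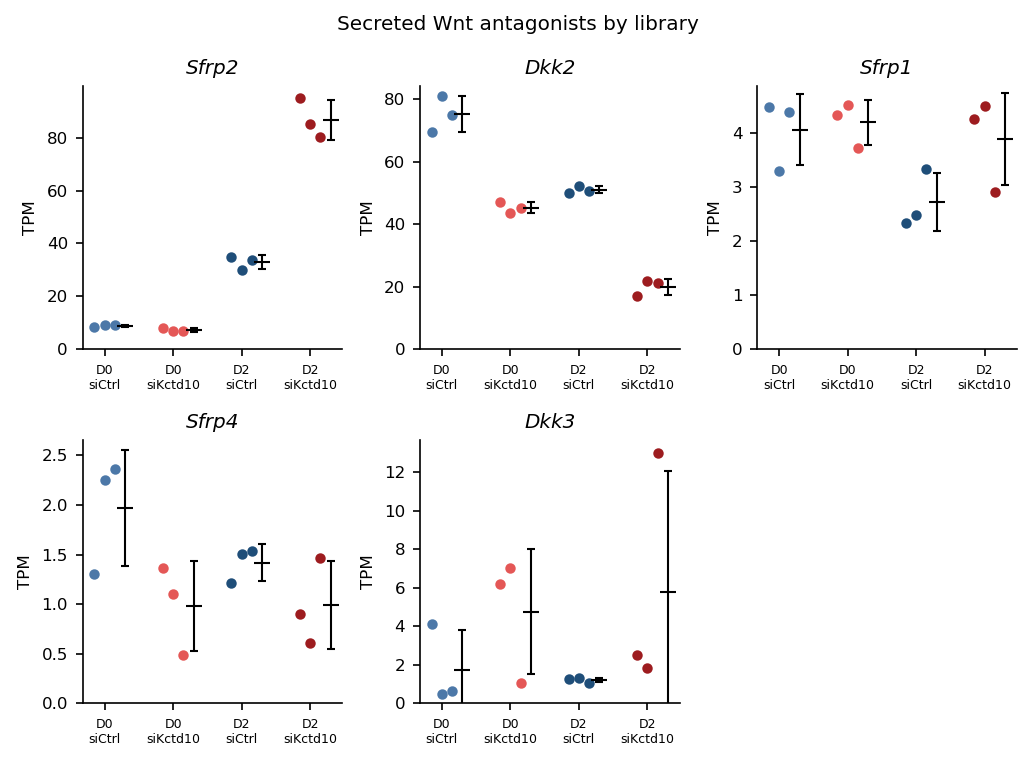
TPM of the 5 measured secreted antagonists in each library (points, 3 per group) with the mean and SD beside them (black); axes start at 0, where an SD bar that would pass below it ends, and differ between panels. Sfrp2 is highest in D2 siKctd10, at 80.3 to 95.1 TPM, where Dkk2 is lowest, at 17.1 to 21.7 TPM.

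The windows of 250 bases before the annotated start of both antagonists are shown because their transcripts moved in opposite directions by day and with the siRNA at D2. That of Wnt9a is shown because it is a ligand that rose by day in siKctd10 cells and its window holds an E-box. They are from RefSeq, GRCm38.p6, given 5′ to 3′ on the strand of the gene, and lie at chr3:83766071-83766320 (plus strand), chr3:132085042-132085291 (plus strand) and chr11:59306680-59306929 (plus strand).

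Sfrp2: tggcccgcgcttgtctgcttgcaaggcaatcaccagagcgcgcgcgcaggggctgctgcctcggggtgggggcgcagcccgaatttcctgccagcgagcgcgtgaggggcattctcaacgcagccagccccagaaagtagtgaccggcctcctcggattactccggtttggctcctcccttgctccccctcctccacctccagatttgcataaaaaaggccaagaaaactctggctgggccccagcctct
Dkk2: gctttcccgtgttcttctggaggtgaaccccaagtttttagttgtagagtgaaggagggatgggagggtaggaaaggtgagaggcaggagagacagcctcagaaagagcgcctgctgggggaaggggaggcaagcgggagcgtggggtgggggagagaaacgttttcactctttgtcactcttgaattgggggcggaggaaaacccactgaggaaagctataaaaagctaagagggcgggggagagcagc
Wnt9a: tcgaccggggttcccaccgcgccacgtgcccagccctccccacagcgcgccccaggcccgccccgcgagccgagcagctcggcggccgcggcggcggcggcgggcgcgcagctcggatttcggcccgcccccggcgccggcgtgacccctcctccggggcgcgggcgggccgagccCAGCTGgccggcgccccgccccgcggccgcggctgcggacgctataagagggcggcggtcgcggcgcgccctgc

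The capitals mark the E-box CAGCTG, a motif that myogenic factors bind, which is the same on both strands. The motifs searched on both strands were CAGCTG, the TCF and LEF motifs CTTTGAA and CTTTGAT, and the TEAD motif GGAATG. They are in 13%, 7.48% (either TCF and LEF form) and 12.6% of 32851 windows of the same length. Of 26 measured Wnt genes with a window, 4 held the E-box (Tcf7, Lef1, Dvl3 and Wnt9a), 2 a TCF and LEF motif (Wnt11 and Wnt5b) and 2 the TEAD motif (Lgr4 and Dvl2). Each gene was counted if any of its windows held the motif, and Tcf7, Lef1, Wnt11 and Wnt5b also had windows without it. The shares above are per window, so these gene counts cannot be set beside them. The windows of Sfrp2 and Dkk2 held none of the motifs, and no binding was measured here.

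Among the ligands, Wnt10a and Wnt10b, closely related ligands linked to β-catenin signalling, made up most of the ligand TPM in every group. Wnt10a held 51 ± 1.95% in D0 siControl, 51.6 ± 6.21% in D0 siKctd10, 54.6 ± 3.7% in D2 siControl and 53.8 ± 0.506% in D2 siKctd10. The summed TPM of the 19 ligand genes was 169, 167 and 150 in D0 siControl and 113, 109 and 88.4 in D0 siKctd10. The D2 libraries held 149, 171 and 169 in siControl and 209, 217 and 186 in siKctd10. Summed ligand TPM was therefore lower with the siRNA at D0 and higher with it at D2, with no overlap on either day.

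Wnt10b (chr15:98770712-98778150) TPM was 43.4, 49.5 and 35 in D0 siControl and 21, 22.4 and 24 in D0 siKctd10, with no overlap. The siRNA lowered it at D0 (-0.88, SE 0.13, limma adjusted p = 0.0096). Over the exon segments covered in all libraries that value was -0.47, so its size depends on which exons are counted. Of its 7 exon segments, 2 were lower with the siRNA at D0 without overlap and 5 overlapped. Its D2 values were 39.3, 46.8 and 42.6 in siControl and 43.4, 46.2 and 40.6 in siKctd10, and these overlapped. Wnt10b rose by day in siKctd10 cells (0.92, SE 0.13, limma adjusted p = 0.00041), by 0.5 over the segments covered in all libraries. There 2 of the 7 segments were higher at D2 without overlap and 5 overlapped.

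Wnt10a (chr1:74791516-74804179) TPM was 87, 81.5 and 78.7 in D0 siControl and 64.9, 56.5 and 39.9 in D0 siKctd10. In D2 cells the values were 87.9, 88.9 and 89.8 in siControl and 112, 116 and 101 in siKctd10. The siKctd10 libraries were all lower at D0 and all higher at D2, and neither difference passed the test (log2 fold change -0.63, limma adjusted p = 0.063 at D0, and 0.30, limma adjusted p = 0.31 at D2). A rise by day was called in siKctd10 cells (1.04, SE 0.15, limma adjusted p = 0.00041).

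Wnt6 (chr1:74771892-74785322), a ligand of epithelia and somites, had a TPM of 3.23, 3.98 and 4.07 in D0 siControl and 2.37, 1.77 and 2.07 in D0 siKctd10. It fell with the siRNA at D0 (-0.63, SE 0.13, limma adjusted p = 0.031), a call that was kept in 1 of 6 fits that left out a library, the one without the first D0 siKctd10 library (limma adjusted p 0.05 to 0.11 over the 6, at -0.72 to -0.56). Without both siKctd10 libraries numbered 3 its limma adjusted p was 0.09. Its D2 values were 3.69, 3.65 and 4.11 in siControl and 3.54, 3.25 and 3.88 in siKctd10, which overlapped. By day it rose in siKctd10 cells (0.57, SE 0.13, limma adjusted p = 0.0054).

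Wnt7b (chr15:85535437-85582473), a ligand of lung and kidney development, was the only one of the 9 measured ligands that fell with differentiation in either arm. Its TPM was 23.3, 21.2 and 20.1 in D0 siControl and 9.01, 10.9 and 9.08 in D2 siControl, a log2 change of -1.08 (SE 0.13, limma adjusted p = 0.00013). In siKctd10 it was 13.3, 17.1 and 13.6 at D0 and 13, 14.8 and 13.2 at D2, which overlapped. The siRNA effect was -0.53 at D0 and 0.46 at D2 on the log2 scale, each short of the threshold (limma adjusted p = 0.074 and 0.086). The difference between these effects, 0.99 (SE 0.19), passed it with a limma adjusted p of 0.048, and that call was kept in 1 of 12 fits that left out a library, the one without the second D0 siKctd10 library (limma adjusted p 0.035 to 0.12 over the 12). It was also lost without both siKctd10 libraries numbered 3 (limma adjusted p = 0.14) and with smaller pseudocounts of 0.1 and 0.5 (limma adjusted p = 0.06 and 0.051).

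Wnt9a (chr11:59306928-59333552), a ligand of joint and limb development, had a TPM of 6.99, 6.05 and 5.94 in D0 siControl and 5.99, 5.74 and 4.15 in D0 siKctd10. At D2 it was 3.75, 14.6 and 18.5 in siControl and 29.8, 28.8 and 19 in siKctd10. The first D2 siControl library lay below every D0 library while the other two were above it. Its level rose by day in siKctd10 cells (2.08, SE 0.45, limma adjusted p = 0.005). Exon segments holding 91.9% of its counted bases fell under 5% of their median in some library, and over the remaining segments the change was 1.09.

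Wnt11 (chr7:98835112-98855195), a ligand of β-catenin-independent signalling, had a TPM of 0.564, 0.649 and 1.25 in D0 siControl and 0.195, 0 and 0.188 in D0 siKctd10. Its D2 values were 1.3, 2.32 and 1.94 in siControl and 2.64, 3.17 and 2.54 in siKctd10. It rose by day in both arms, by 0.65 (SE 0.18, limma adjusted p = 0.019) in siControl and by 1.75 (SE 0.18, limma adjusted p = 5.2e-05) in siKctd10. The former was kept in 2 of 6 fits that left out a library and lost without D0 siControl library 1 or 2 or D2 siControl library 2 or 3 (limma adjusted p 0.0079 to 0.071 over the 6). It was also lost with a pseudocount of 0.1, quantile normalization, voom and a fit of the compared groups alone (limma adjusted p = 0.086, 0.19, 0.12 and 0.065). The low measured ligands were Wnt4, at 1.63 to 2.54 TPM, Wnt5a, at 0.373 to 1.74 TPM, and Wnt5b, at 0.112 to 1.92 TPM, and none of these 3 passed any test.

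**Figure D4:**
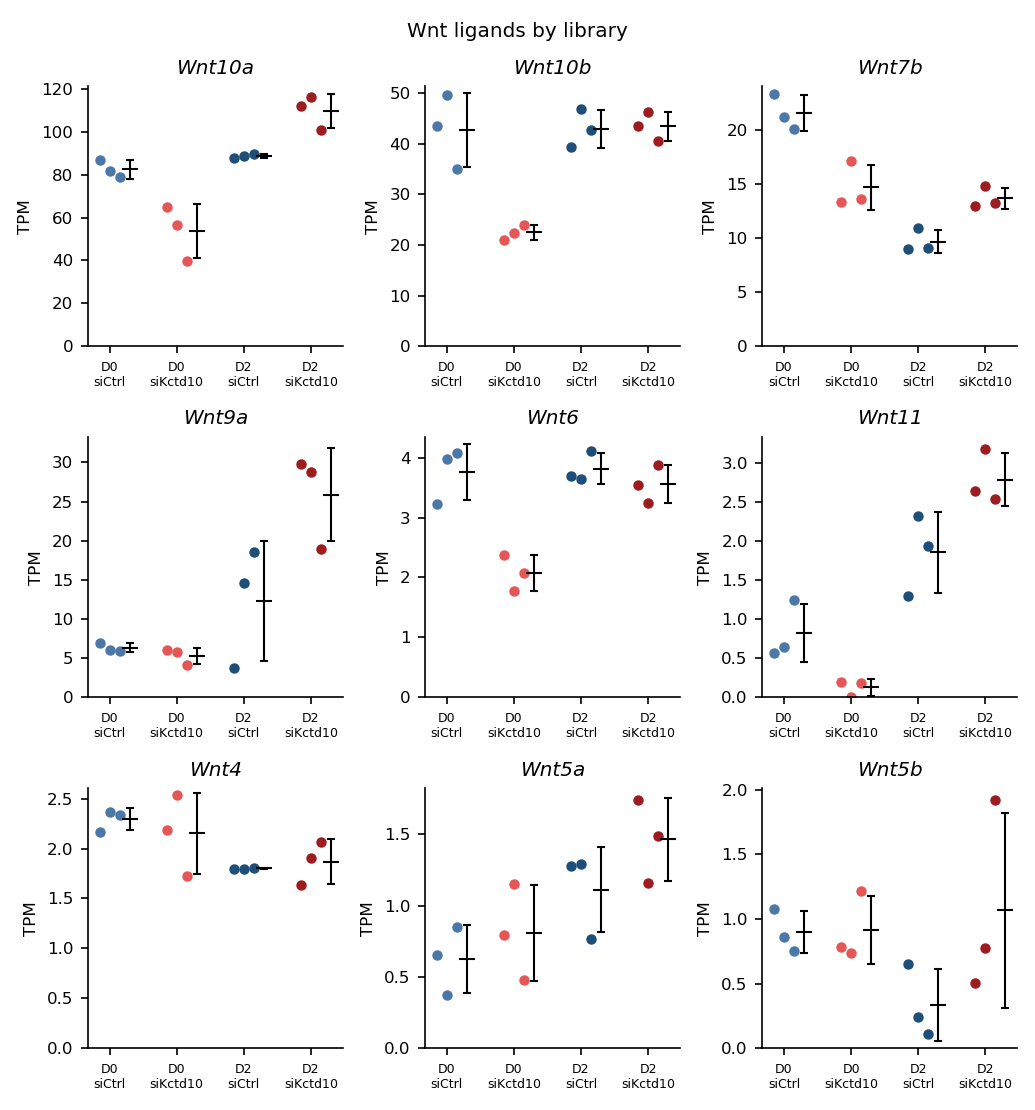
TPM of the 9 measured Wnt ligands in each library (points, 3 per group) with the mean and SD beside them (black); axes start at 0 and differ between panels. Wnt10a, Wnt10b, Wnt7b, Wnt6 and Wnt11 are lower in D0 siKctd10 than in D0 siControl without overlap, as 23.2% of all genes were without overlap in either direction. Only Wnt10b and Wnt6 of these passed the test there.

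The 2 genes of ligand maturation differed in how far they moved. Porcn (chrX:8193848-8206525), the acyltransferase that adds the lipid to Wnt proteins, had the largest log2 rise of the 40 by day in siControl cells. Its TPM was 2.91, 2.68 and 2.29 in D0 siControl and 23.4, 19.5 and 21.7 in D2 siControl, a log2 change of 2.64 (SE 0.16, limma adjusted p = 1.1e-06). In siKctd10 it was 3.95, 3.35 and 2.47 at D0 and 33.6, 27.2 and 28.4 at D2, a log2 change of 2.86 (SE 0.16, limma adjusted p = 8.7e-07). The D2 siKctd10 libraries were all above the D2 siControl libraries, but that difference did not pass the test (0.44, limma adjusted p = 0.16).

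Wls (chr3:159839672-159938664), the carrier of Wnt proteins to the cell surface, had a TPM of 213, 236 and 222 in D0 siControl and 374, 425 and 433 in D2 siControl. A rise by day was called in siControl cells (0.87, SE 0.27, limma adjusted p = 0.029), a call that was kept in all 13 other alternatives but in 1 of 6 fits that left out a library, the one without the first D2 siControl library (limma adjusted p 0.049 to 0.079 over the 6). In siKctd10 it was 285, 201 and 216 at D0 and 398, 413 and 187 at D2, where the third library lay below every D0 siKctd10 library. That change by day did not pass the test (0.44, limma adjusted p = 0.24). Of 13 exon segments of Wls, however, 9 were higher at D2 than at D0 in siKctd10 without overlap, and 4 overlapped. Segments with 28.5% of its counted bases dropped out in some library, so its summed TPM is uncertain.

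Of the Frizzled receptors, Fzd1, Fzd7 and Fzd2 had the highest mean TPM at D0, and Fzd1 and Fzd2 were the most abundant at D2. Fzd1 (chr5:4753839-4758035), a single-exon gene, had a TPM of 73.7, 68.1 and 69.8 in D0 siControl and 71.6, 72.2 and 58.9 in D0 siKctd10, which overlapped. In D2 cells the values were 158, 162 and 146 in siControl and 268, 252 and 227 in siKctd10, with no overlap. It rose with the siRNA at D2 (0.68, SE 0.10, limma adjusted p = 0.005). By day it rose by 1.13 (SE 0.10, limma adjusted p = 1.3e-05) in siControl and by 1.87 (SE 0.10, limma adjusted p = 6.2e-07) in siKctd10. These 3 calls were kept in every alternative run on them. The siRNA effect was larger at D2 than at D0 by 0.74 (SE 0.14, limma adjusted p = 0.047), a call kept in 1 of 12 fits that left out a library, the one without the third D2 siKctd10 library (limma adjusted p 0.049 to 0.12 over the 12).

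Fzd2 (chr11:102604396-102608058) had a TPM of 53.7, 49.2 and 54 in D0 siControl, 59.5, 56.5 and 45.2 in D0 siKctd10, 108, 102 and 95.7 in D2 siControl and 123, 129 and 104 in D2 siKctd10. Its level rose by day in both arms (0.95, SE 0.12, limma adjusted p = 0.00017 in siControl and 1.13, SE 0.12, limma adjusted p = 5.8e-05 in siKctd10). Fzd3 (chr14:65192449-65262463), a receptor of axon guidance and planar polarity, had a TPM of 7.53, 6.76 and 8.49 in D0 siControl, 9.86, 9.9 and 9.04 in D0 siKctd10, 12, 16.2 and 14.4 in D2 siControl and 16.4, 17.9 and 14.2 in D2 siKctd10. Fzd3 rose by day in both arms as well (0.82, SE 0.14, limma adjusted p = 0.0013 in siControl and 0.69, SE 0.14, limma adjusted p = 0.0036 in siKctd10). Fzd2 and Fzd3 both lay higher in every D2 library than in every D0 library of the same siRNA, and neither passed the test by siRNA.

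Fzd9 rose by day in siControl (0.92, limma adjusted p = 0.0031), at a TPM of 0.153 to 1.94 over all libraries. The other Frizzled genes passed no test. Fzd7 ranged from 67.4 to 86.5 TPM, Fzd6 from 30 to 60.5 TPM, Fzd5 from 6.95 to 14.1 TPM, Fzd4 from 2.85 to 5.5 TPM and Fzd8 from 2.4 to 4.93 TPM. The summed Frizzled TPM was 266 ± 12.5 in D0 siControl, 275 ± 33.5 in D0 siKctd10, 400 ± 22.9 in D2 siControl and 530 ± 34.4 in D2 siKctd10 (SD, n = 3 each).

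Among the other receptors, Ror1 and Lgr4 moved by day in opposite directions. Ror1 (chr4:100095791-100444765), a receptor tyrosine kinase for Wnt ligands, had a TPM of 1.34, 1.2 and 1.49 in D0 siControl and 0.809, 0.772 and 0.85 in D0 siKctd10. The D2 libraries held 4.86, 5.16 and 5.42 in siControl and 5.97, 5.67 and 5.79 in siKctd10. It rose by 1.39 (SE 0.10, limma adjusted p = 3.5e-06) in siControl and by 1.91 (SE 0.10, limma adjusted p = 6.1e-07) in siKctd10, without overlap of the days.

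Lgr4 (chr2:109917647-110014257), a receptor for R-spondins that raises Wnt receptor levels at the membrane, had a TPM of 35.2, 35.5 and 37.2 in D0 siControl, 34.5, 37.1 and 32 in D0 siKctd10, 25.4, 26.9 and 24.5 in D2 siControl and 26.7, 24.3 and 24 in D2 siKctd10. It fell by day in both arms (-0.48, SE 0.09, limma adjusted p = 0.0025 in siControl and -0.45, SE 0.09, limma adjusted p = 0.0036 in siKctd10). Ror2, the other ROR kinase, ranged from 1.66 to 3.22 TPM and passed no test.

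Lrp6 (chr6:134446476-134566965), a co-receptor, had a TPM of 35.2, 24 and 37.9 in D0 siControl and 57.3, 81.6 and 49.6 in D0 siKctd10. At D2 it was 70.3, 40 and 37.9 in siControl and 98.6, 101 and 108 in siKctd10. The siKctd10 libraries were all higher on both days, and the difference passed the test at D2 (1.1, SE 0.27, limma adjusted p = 0.048) and not at D0 (0.93, limma adjusted p = 0.12). The D2 call was kept in 3 of 13 alternatives and in 1 of 6 fits that left out a library, the one without the first D2 siControl library (limma adjusted p 0.021 to 0.14 over the 6). Without both siKctd10 libraries numbered 3 it was 1.06 (limma adjusted p = 0.13). Segments with 60.3% of its counted bases dropped out in some library, and over the rest the change was 0.58. Lrp5 (chr19:3584828-3686564), the related co-receptor, had a TPM of 66, 39.2 and 60.2 in D0 siControl and 80.8, 77.6 and 79.9 in D2 siControl. It rose by day there (0.55, SE 0.16, limma adjusted p = 0.025), at 0.36 over the segments. That call was lost without any 1 of the D2 siControl libraries, and the value was 0.33 to 0.70 over the 6 fits that left out a library (limma adjusted p 0.01 to 0.063), lowest without the second D0 siControl library. In siKctd10 it was 58.4, 62.7 and 59.7 at D0 and 66.7, 79 and 73.5 at D2.

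Of the cytoplasmic components, Axin2 is widely used as a readout of β-catenin signalling, since it is both a scaffold of the destruction complex and a target of the pathway. Axin2 (chr11:108920349-108950783) TPM was 1.46, 1.07 and 1.1 in D0 siControl and 0.948, 0.517 and 0.584 in D0 siKctd10. In D2 cells the values were 2.39, 1.74 and 2.76 in siControl and 3.6, 3.64 and 3.8 in siKctd10. The siKctd10 libraries were all lower at D0 and all higher at D2, and neither difference passed the test (-0.40, limma adjusted p = 0.23, and 0.52, limma adjusted p = 0.092). By day it rose by 0.57 (SE 0.15, limma adjusted p = 0.014) in siControl and by 1.48 (SE 0.15, limma adjusted p = 4.4e-05) in siKctd10. The former call was lost without D0 siControl library 2 or D2 siControl library 3 (limma adjusted p 0.0075 to 0.056 over 6 such fits).

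Ctnnb1 (chr9:120929216-120960507), the gene of β-catenin, had a TPM of 818, 886 and 846 in D0 siControl and 297, 917 and 728 in D0 siKctd10. The D2 libraries held 852, 859 and 949 in siControl and 874, 966 and 896 in siKctd10. It passed no test, and the first D0 siKctd10 library stood far below the others. In that library the coverage per base of its last exon (chr9:120959309-120960507, 1199 bases) was 0.381, against 1689 to 2385 in the other 11. Exon segments of other genes also dropped out in single libraries, so the genes with a mean TPM of at least 5 were also fitted over the segments without such losses.

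Dvl3 (chr16:20516982-20534010), a Dishevelled adaptor, had a TPM of 20.4, 19.6 and 22.7 in D0 siControl, 19.8, 18.5 and 18.2 in D0 siKctd10, 31.4, 29.6 and 30.9 in D2 siControl and 28.9, 27.1 and 32.6 in D2 siKctd10. It rose by day in both arms (0.53, SE 0.10, limma adjusted p = 0.0023 in siControl and 0.62, SE 0.10, limma adjusted p = 0.00096 in siKctd10). Dvl1 ranged from 8.57 to 29.9 TPM and Dvl2 from 17.9 to 34.7 TPM, and neither passed a test. Axin1 (chr17:26138688-26195811), the constitutive scaffold of the destruction complex, had a TPM of 46.4, 49.2 and 48.4 in D0 siKctd10 and 39.5, 33.3 and 26.5 in D2 siKctd10, against 39, 40.9 and 43.3 and 34, 35.6 and 34.4 in the siControl groups. It fell by day in siKctd10 cells (-0.54, SE 0.13, limma adjusted p = 0.008), by 0.28 on the log2 scale over the exon segments.

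Of the nuclear factors, Tcf7 fell with the siRNA at D0 and rose with differentiation in both arms. Tcf7 (chr11:52252371-52283014), which encodes TCF1, had a TPM of 49.9, 52.2 and 50.4 in D0 siControl and 24.4, 32.6 and 26.2 in D0 siKctd10. Its D2 values were 73.2, 73.6 and 81.1 in siControl and 60.6, 67.4 and 60.7 in siKctd10. The siKctd10 libraries were all lower on both days, and the difference passed the test at D0 (-0.86, SE 0.11, limma adjusted p = 0.0041) and not at D2 (-0.27, limma adjusted p = 0.22). The difference between these 2 effects missed the threshold too (0.59, limma adjusted p = 0.15). By day it rose by 0.57 (SE 0.11, limma adjusted p = 0.0025) in siControl and by 1.16 (SE 0.11, limma adjusted p = 2.7e-05) in siKctd10.

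Lef1 (chr3:131110471-131224356) had a TPM of 7.95, 6.85 and 5.88 in D0 siControl, 7.86, 6.67 and 7.84 in D0 siKctd10, 11.2, 12.3 and 11.7 in D2 siControl and 11.1, 20.8 and 13.5 in D2 siKctd10. Its level rose by day in both arms (0.70, SE 0.20, limma adjusted p = 0.022 in siControl and 0.89, SE 0.20, limma adjusted p = 0.0065 in siKctd10). The former call was lost without library 2 or 3 of either siControl group (limma adjusted p 0.028 to 0.078 over 6 such fits). Tcf7l1 (chr6:72626378-72789254), often a repressor, had a TPM of 16.7, 19.7 and 20.2 in D0 siControl, 9.74, 16 and 14.6 in D0 siKctd10, 31.8, 26.8 and 30.9 in D2 siControl and 26.1, 26.7 and 26 in D2 siKctd10. Tcf7l1 rose by day in both arms too (0.63, SE 0.17, limma adjusted p = 0.014 in siControl and 0.94, SE 0.17, limma adjusted p = 0.0016 in siKctd10). Without the first D0 siControl library the siControl value missed the threshold (limma adjusted p = 0.053). Lef1 and Tcf7l1 were higher in every D2 library than in every D0 library of the same siRNA. Tcf7l2 ranged from 7.96 to 45.6 TPM, with 15 transcripts, and passed no test.

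**Figure D5:**
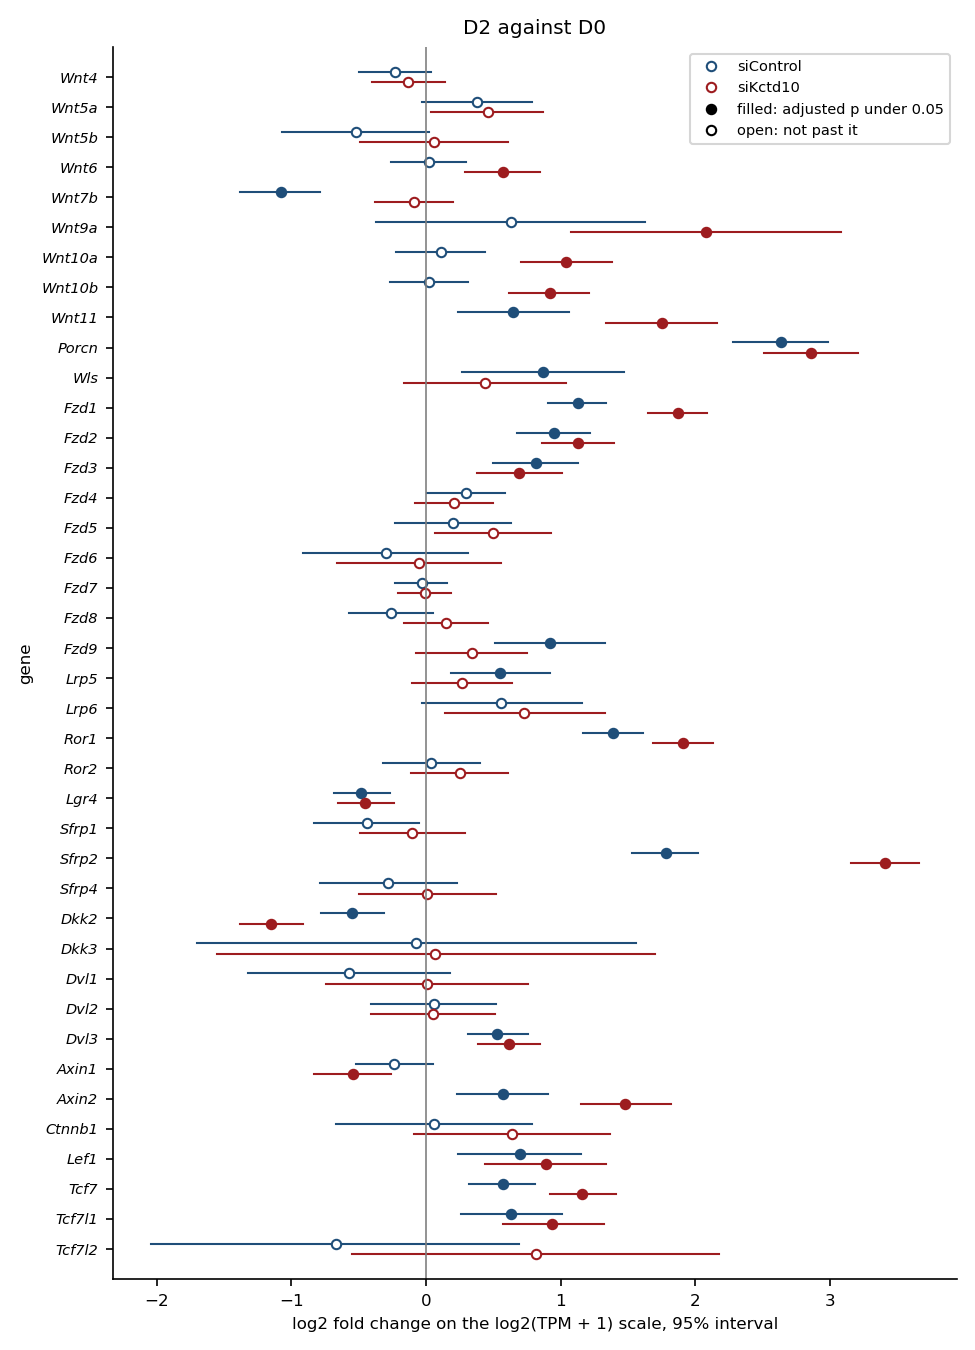
Log2 fold change of D2 against D0 for each measured Wnt gene in siControl and in siKctd10 on the log2(TPM + 1) scale, with the 95% interval; filled points have an adjusted p under 0.05. Porcn and Sfrp2 lie farthest above 0, and Dkk2 and Lgr4 lie below 0 in both arms.

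The wider pathway was read from 5 lists of other genes (110 genes, 82 of them measured), which cover modulators at the membrane, the destruction complex and its kinases, nuclear cofactors, planar polarity and commonly used targets. At D0 the siRNA raised 3 and lowered 0 of the 82, with a median log2 fold change of 0.11 (0.05 over all genes), where 2.45% of all genes passed (1.48% higher and 0.963% lower). These were Frat2 (0.88), an inhibitor of GSK3, Fosl1 (0.85), an AP-1 factor, and Kremen1 (0.39), a receptor for DKK proteins. At D2 it raised 7 and lowered 1, with a median of 0.13 (0.08 over all genes), where 4.75% of all genes passed (2.83% higher and 1.92% lower). Lgr5, an R-spondin receptor and target, had a TPM of 1.04, 0.794 and 0.855 in D2 siControl and 2.64, 2.57 and 2.83 in D2 siKctd10 (0.96, limma adjusted p = 0.0038). Lrp4, a co-receptor of agrin that also binds DKK1 and sclerostin, had a TPM of 52.6, 60.5 and 56.8 against 112, 117 and 111 (0.99, limma adjusted p = 0.00035). The siKctd10 libraries lay above the siControl libraries for both genes. Cd44, an adhesion receptor and target, was the gene that fell, from 627, 756 and 683 to 452, 518 and 477 TPM (-0.51, limma adjusted p = 0.023). Lgr5 and Lrp4 were also the 2 genes of the 82 whose siRNA effect passed the test as higher at D2 than at D0 (1.24, limma adjusted p = 0.016, and 0.66, limma adjusted p = 0.048). None of the calls in these lists, by siRNA or by day, was followed through the alternative fits, so how firmly they hold is not known.

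By day, 22 of the 82 rose and 5 fell in siControl cells, with a median of 0.25 (0.09 over all genes), and 29 rose and 7 fell in siKctd10 cells, with a median of 0.17 (0.12 over all genes). Over all genes 21.4% rose and 14% fell in siControl, and 23.1% rose and 13.3% fell in siKctd10. Nkd2, an antagonist that binds Dishevelled, rose by 3.36 in siControl and by 4.0 in siKctd10, and Ccn5, a matricellular target, by 2.72 and 2.53. Of 18 measured target genes, 5 rose and 4 fell in siControl cells and 6 rose and 5 fell in siKctd10 cells, beside the shares of all genes just given. Those that fell in siControl included Ccnd1, cyclin D1, at 517, 535 and 538 TPM in D0 siControl and 144, 143 and 145 TPM in D2 siControl (log2 fold change -1.87, limma adjusted p = 4.6e-08).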

How the data were processed

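Members, roles and lists were chosen with earlier results of these data known. Per the file headers, the authors estimated abundance with StringTie 1.3.3b for 63759 known transcripts, giving coverage, FPKM and TPM; HISAT, SAMtools, DESeq2, mm10 and StringTie 1.1.3 stand in the submitters' processing notes. Which version made the deposited values, and the strand setting, are not given in the sources used here. These other values (deposited attributes, not read counts) were used as TPM, and coverage in alternatives.

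Transcripts were matched to GENCODE genes on GRCm38 by identical introns (42608) or at least 50% exon overlap (13473), and 7678 stayed unmatched, with 3.82 to 4.63% of TPM per library. TPM was summed per gene, genes were kept where 3 or more libraries reached 1 TPM, and log2(TPM + 1) was fitted with limma 3.58.1 (R 4.3.3; 4 group means with 8 residual degrees of freedom, robust, with a trend, Benjamini-Hochberg adjustment over 13079 genes, threshold 0.05, two-sided). All 4 groups share 1 estimate of spread. The test was tested on simulated data: for siKctd10 at D0, with 13079 genes, it recovered 44% of 100 genes changed 2-fold and 20% of 100 changed 1.5-fold, with 6 false calls. The changed genes were drawn from those above 5 TPM in D0 siControl, and the simulated spread was normal and independent between genes. These rates therefore do not cover Wnt genes below that level, such as Axin2 and Wnt6. Without counts per gene no counting error was computed; read pairs were estimated from coverage, length and 202 bases a pair.

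Per-library values are given for each measured gene past the threshold without overlap of the groups and whose higher group has a mean of 2 TPM or more, and always for Kctd10, Axin2, Lef1, Tcf7, Ctnnb1, Wls and Porcn. Alternatives were 13 settings and 12 fits that left out 1 library. Of these, the fit without both siKctd10 libraries numbered 3 and the fit over exon segments were chosen after seeing the data; the latter kept segments at 5% or more of their median in every library, of at least 200 bases per gene, for genes with a mean TPM of at least 5, which can remove segments of genes that fell. Motifs and windows were also chosen after values were known.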

Additional observations from a re-analysis of the deposited data

Results flagged for a closer look

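The siRNA effect at D2 minus that at D0, on the log2 scale, passed the test of the difference for 3 genes: Sfrp2 at 1.63 (limma adjusted p = 0.0035), Wnt7b at 0.99 (limma adjusted p = 0.048) and Fzd1 at 0.74 (limma adjusted p = 0.047). For Sfrp2 and Wnt7b the siKctd10 libraries were all below the siControl libraries at D0 and all above them at D2. In 4 other genes that order was exchanged in the same way, but their difference did not pass the test. How many of all 13079 genes show such an exchange was not computed, so these genes cannot be set beside a share. On single days, 23.2% of all genes at D0 and 28.4% at D2 had no overlap by siRNA. The difference between the days was 0.93 for Wnt10a (limma adjusted p = 0.096), 1.1 for Wnt11 (limma adjusted p = 0.11), 0.91 for Axin2 (limma adjusted p = 0.11) and 0.52 for Ror1 (limma adjusted p = 0.17). Wnt10b, whose libraries overlapped at D2, had a difference of 0.90 (limma adjusted p = 0.07).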

How the results depend on the processing

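Of 48 calls of a Wnt gene in a comparison, 33 were kept under every alternative run on them, 15 were lost under some and 0 changed direction. For siKctd10 at D0, 4 Wnt genes were called, 7 with voom on estimated read pairs and 0 where the fit held the D0 groups alone, in which all genes called went from 320 to 72. For the interaction of day and siRNA, 3 were called, and 1, Sfrp2, with a pseudocount of 0.1, with a pseudocount of 0.5 and with no filter on low values. Leaving out 1 library gave 1 to 2 Wnt genes for the interaction, 3 to 5 for siKctd10 at D0, 3 to 4 at D2, 13 to 18 by day in siControl and 19 to 23 in siKctd10. Over all genes, leaving out 1 library gave 118 to 223 calls at D0 (320 with all), 315 to 417 at D2 (621) and 52 to 82 for the interaction (97). At D2 all genes called went from 621 to 260 with only the D2 groups. For the interaction they went from 97 to 62 with a pseudocount of 0.1 and to 63 without both siKctd10 libraries numbered 3, and over exon segments (9656 genes) to 156, with 592 at D0. The cause was not tested. Over exon segments 6 of 39 values changed by over 1.5 times, and the account above names them. Same-numbered libraries correlated weakly across groups (-0.02 to 0.20). All 3 still correlated best with their own number by siRNA at D0 and by day in siKctd10, so whether the numbers pair the samples is uncertain. With the replicate number as a block, 3 Wnt genes were called at D0, 3 at D2, 18 by day in siControl, 19 in siKctd10 and 2 for the interaction, where all genes called went to 42, and the calls of Wnt6 at D0, Lrp6 at D2 and Wnt7b for the interaction were lost. Quantile normalization ended the calls of Axin2, Lef1 and Wnt11 by day in siControl of Wnt6 by day in siKctd10, of Lrp6 at D2 and of Fzd1 for the interaction, a fit of the compared groups alone that of Axin1 in siKctd10, and median-ratio scaling, voom and that fit each that of Lrp5 in siControl. The median of all genes by day in siKctd10 moved from 0.117 to 0.002 with median-ratio scaling and to -0.021 with quantile normalization. The simulated recovery limits what changes of 2-fold or less can show at D0.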
